A study of Arabidopsis thaliana with 12 samples.

Results

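The long noncoding RNA (lncRNA) genes of *Arabidopsis thaliana* are described here in seedlings that carry different versions of the DNA methyltransferase CMT2. Members were the entries with the annotation class long noncoding RNA beside their identifier in the expression tables of the 12 libraries. There were 2444 of them among 69056 listed genes, transposable elements (TEs) and other features. A further 1037 genes in a separate antisense lncRNA class were not members. All 2444 had the same start and end in the TAIR10.1 reference annotation as in the TAIR10 tables, and none carried a symbol there. Members are therefore given by locus identifier.

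Whole seedlings raised for 10 days at 22 °C were sequenced, with 2 libraries in each of 6 groups. Col-0 is the wild type. The group labelled *cc* is the *cmt2 cmt3* double mutant, with T-DNA insertions in both chromomethylase genes. CMT2/*cc* lines 1 and 19 carry a FLAG-tagged genomic CMT2 transgene under its own promoter in *cc*, and V1200R/*cc* lines 9 and 15 carry the same transgene with the V1200R substitution. All 4 transgenic lines thus share the *cc* background and a selection cassette that expresses a fluorescent oleosin in seed. Each line goes back to its own transformation event, so a construct was represented by 2 lines and a line by 2 libraries. No source used here states whether the libraries of a group came from separate cultures, and the p-values then measure only the spread between libraries.

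An lncRNA is a transcript longer than a small RNA with no clear protein-coding potential. Many plant lncRNAs lie between genes or close to TEs, and some act in chromatin, splicing or nutrient responses, while most have no known role. In plants, cytosine methylation occurs in the CG, CHG and CHH contexts, where H is A, C or T. CMT3 mainly methylates CHG and CMT2 mainly CHH at sites marked by histone H3 lysine methylation, and loss of either can release the transcription of TEs and of transcripts near them. CMT2-V1200R was built by the study as a CMT2 with added activity on CHG.

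The libraries held between 929522248 and 1452952115 aligned bases, and replicate libraries correlated with r between 0.98 and 0.982 across the features tested. CMT2 was at 15.002 and 13.3 TPM (StringTie's abundance relative to transcript length and to the library's total) in Col-0, at 1.70 and 1.99 TPM in *cc*, and between 79.6 and 159 TPM in the 8 transgenic libraries. CMT3 stood at 12.9 and 11.5 TPM in Col-0 and at 16.4 and 14.0 TPM in *cc*, so its transcript level did not mark the mutant, and *cc* is used here as the label. In the 8 transgenic libraries CMT3 lay between 4.72 and 7.02 TPM, with log2 differences from *cc* of -1.51 in line 1, -1.20 in line 19, -1.21 in line 9 and -1.26 in line 15 (adjusted p at most 0.00075, limma), and these calls held whichever library of the comparison was left out. The lines thus differed from the *cc* libraries at CMT3 itself, and the part of this in the differences between a line and *cc* was not tested. The seedling label was matched by markers of green tissue, which summed to between 22271 and 29375 TPM, and of root, which summed to between 46.6 and 64.8 TPM. Floral markers summed to between 2.40 and 5.40 TPM, and the pollen marker VGD1 was listed at 0 in 11 of the 12 libraries. The 3 seed markers summed to 16.5 and 25.8 TPM in V1200R/*cc* line 15 and to at most 2.99 TPM in the other groups. CRA1, a seed storage protein gene, was at 11.8 and 13.6 TPM in that line and at most 1.68 TPM in the other groups, and was called higher than in *cc*. OLEO1 was called higher too, but the selection cassette carries an oleosin sequence, so reads of the gene and of the cassette cannot be told apart. The part of these markers in the results for line 15 was not tested.

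The sequences of the members on which the results turn are printed first. They were read from TAIR10.1 at the coordinates given and run 5′ to 3′ on the strand of the gene. Capitals mark the trinucleotides CAG, CTG, CCG and CGG, which are the CHG sites of the printed and of the opposite strand, and CCGG holds an overlapping pair. Whole genes are shown for the member with the highest level in *cc* among those that rose (AT4G03875, chr4:630579-630795, minus strand), for a member listed at 0 outside *cc* (AT2G05905, chr2:5614393-5614623, plus strand), for the risen member richest in CHG sites (AT3G06955, chr3:16498192-16498394, minus strand) and for the member that was low only in *cc* (AT4G06115, chr4:7888862-7889072, minus strand). None of these 4 genes overlaps another listed feature.
AT4G03875: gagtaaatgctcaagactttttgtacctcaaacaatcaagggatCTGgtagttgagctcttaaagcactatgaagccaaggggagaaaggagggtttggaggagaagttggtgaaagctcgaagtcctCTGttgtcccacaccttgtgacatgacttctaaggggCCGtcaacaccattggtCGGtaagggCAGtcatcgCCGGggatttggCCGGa
AT2G05905: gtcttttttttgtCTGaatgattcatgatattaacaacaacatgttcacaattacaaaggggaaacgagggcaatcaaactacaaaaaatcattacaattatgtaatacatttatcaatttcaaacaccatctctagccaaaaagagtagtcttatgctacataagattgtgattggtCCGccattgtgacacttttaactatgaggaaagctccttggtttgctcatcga
AT3G06955: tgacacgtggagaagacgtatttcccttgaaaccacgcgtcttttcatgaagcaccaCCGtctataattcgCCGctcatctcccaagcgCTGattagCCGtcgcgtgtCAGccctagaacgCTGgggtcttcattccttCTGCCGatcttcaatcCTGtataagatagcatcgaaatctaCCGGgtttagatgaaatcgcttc
AT4G06115: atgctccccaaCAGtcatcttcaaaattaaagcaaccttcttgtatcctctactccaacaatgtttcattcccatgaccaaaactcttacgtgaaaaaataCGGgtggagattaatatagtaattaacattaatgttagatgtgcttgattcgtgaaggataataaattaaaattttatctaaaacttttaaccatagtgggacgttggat

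For 2 longer members the 300 bases around the annotated start are shown, from 250 bases upstream to 50 bases into the gene. AT1G06407 (chr1:11102314-11102804, minus strand) stayed on in every transgenic line, and its window is chr1:11102755-11103054. AT3G05955 (chr3:11586005-11586548, minus strand) was low in both V1200R/*cc* lines, and its window is chr3:11586499-11586798.
AT1G06407: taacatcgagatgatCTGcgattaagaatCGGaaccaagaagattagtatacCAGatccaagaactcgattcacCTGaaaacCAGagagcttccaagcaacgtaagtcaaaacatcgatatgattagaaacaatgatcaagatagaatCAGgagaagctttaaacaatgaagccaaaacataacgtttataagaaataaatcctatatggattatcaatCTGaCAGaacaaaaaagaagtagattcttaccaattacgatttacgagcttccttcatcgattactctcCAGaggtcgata
AT3G05955: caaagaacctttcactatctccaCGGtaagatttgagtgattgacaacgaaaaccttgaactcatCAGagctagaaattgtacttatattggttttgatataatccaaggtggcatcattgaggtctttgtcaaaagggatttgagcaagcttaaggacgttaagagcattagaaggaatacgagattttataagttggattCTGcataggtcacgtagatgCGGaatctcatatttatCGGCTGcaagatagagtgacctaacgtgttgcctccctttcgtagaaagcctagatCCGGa

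AT3G06955 held 11 of these trinucleotides in 203 bases and AT4G03875 held 9 in 217 bases, which placed them at the percentiles 96.0 and 85.1 of all members by density. AT2G05905 and AT4G06115 held 2 each, at the percentiles 4.3 and 5.3. Members that rose in *cc* therefore lay at both ends of this range. The start windows of AT1G06407 and AT3G05955 held 9 and 8, beside a median of 6 over the 2443 windows read. At least 1 such trinucleotide was present in 99.4% of the windows, so its presence sets no member apart.

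Most lncRNA genes were listed at 0 or at low levels in these libraries of polyadenylated RNA. Because the tables hold no counts, a listed 0 is not taken as silence. Of the 2444 members, 1478 (60.5%) were listed at 0 in all 12 libraries, 856 were above 0 in some of them and 110 in all. The members summed to 584 and 588 TPM in Col-0, to 641 and 701 TPM in *cc*, to between 513 and 585 TPM in the CMT2/*cc* libraries and to between 521 and 546 TPM in the V1200R/*cc* libraries. Only 76 members averaged at least 1 TPM and 7 at least 10 TPM. In total 238 members (9.74%) reached 0.5 TPM in at least 2 libraries and were tested, together with the other features that did, 23614 in all.

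Members are short, with a median length of 313 bases and a range of 200 to 7116 bases. They were spread over chromosomes 1 to 5 with 640, 421, 497, 367 and 519 genes, of which 1231 lie on the plus strand. Another listed feature overlapped 1008 of them, a protein-coding gene 395 and a TE or TE gene 1. A TE lay within 2000 bases of 1312 members, and 204 lay in windows of 500 kb of which TEs cover at least 50%. A second, near-identical locus in the genome (at least 95% identity over at least 80% of the length) was found for 55 members, whose reads could not be assigned to 1 locus with certainty.

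The 3 members with the highest mean level did not pass the test of change in any comparison. AT3G06355 (chr3:14199575-14200076) lay between 90.6 and 164 TPM. It contains the ribosomal RNA gene AT3G41979 on the same strand and has a near-identical second locus, so its level is uncertain. AT3G05945 (chr3:11510090-11510510) stood at 37.9 and 38.8 TPM in Col-0, 30.2 and 31.9 TPM in *cc*, between 25.0 and 34.9 TPM in CMT2/*cc* and between 39.6 and 55.2 TPM in V1200R/*cc*. Its V1200R/*cc* libraries were all above its CMT2/*cc* libraries, with a difference of 0.60 ± 0.10 (SE) on the log2 scale (adjusted p = 0.002), which is below the minimum of 1. AT3G07555 (chr3:17254700-17255262) overlaps AT3G46845 on the opposite strand and lay between 26.9 and 49.6 TPM.

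To ask which lncRNA genes depend on the 2 chromomethylases, *cc* was compared with Col-0. A small group of mostly TE-near lncRNA genes rose from little or nothing. AT4G03875, 386 bases from the TE AT4TE03295, was the most abundant of them, while AT4G06115 went the other way. In whole seedlings, a change in the share of cells that express a gene and a change of its RNA per cell cannot be told apart. By limma with Benjamini-Hochberg adjustment over all features (calls at adjusted p under 0.05 and a difference of 1 or more in log2), 17 members were higher in *cc* and 3 were lower. The background over all 23614 features was 1.82% higher and 0.195% lower. The median log2 difference over the 238 members tested was 0.08, beside 0.02 over all features, and it was 0.0011 over the 135 members above 0 in all 4 libraries.

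The filter shapes this count. Of the 17 risen members, 10 were under 0.5 TPM in every library outside *cc* and so were tested only because *cc* was high, and the 7.14% they make of the tested members is no share of lncRNA genes in general. Without *cc* replicate 1, 4 members were higher and 2 lower, without *cc* replicate 2 the numbers were 6 and 0, and without Col-0 replicate 2 they were 11 and 1. Leaving out a *cc* library puts those 10 below the filter. AT1G06407, AT4G03875 and AT5G02935 remained called whichever of the 4 libraries was left out. So did AT3G06955, but outside *cc* it reached 0.5 TPM only in Col-0 replicate 2. The filter asks for at least 2 libraries, so AT3G06955 too was tested only because *cc* was high.

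AT4G03875 stood at 3.48 and 2.56 TPM in Col-0 and at 37.2 and 38.3 TPM in *cc*. The *cc* libraries lay far above every other library, and the difference was 3.45 ± 0.25 (SE) on the log2(TPM + 0.5) scale (adjusted p = 4.1e-05, limma). These values rest on 448 and 440 aligned bases over the gene in Col-0 and on 5729 and 6499 in *cc*. AT4TE03295 itself went from 1.08 and 0.943 TPM to 8.42 and 9.40 TPM, a difference of 2.64 ± 0.17 (adjusted p = 2e-05).

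AT5G02935 (chr5:6324293-6324905, 613 bases) stood at 3.01 and 4.65 TPM in Col-0 and at 11.9 and 14.7 TPM in *cc*, and rose by 1.69 ± 0.23 (SE, log2 scale, adjusted p = 0.0032, limma). It lies within the protein-coding AT5G18937 on the opposite strand, which stood at 0.473 and 0.0224 TPM in Col-0 and at 0.631 and 1.70 TPM in *cc*. Whether reads were counted by strand is not given in the sources used here, and a near-identical second locus exists, so how the reads divide between these is uncertain. AT3G06955 stood at 0.415 and 0.510 TPM in Col-0, on 50 and 82 aligned bases, and at 4.33 and 6.05 TPM in *cc*. The difference was 2.55 ± 0.27 (SE, log2 scale). AT3G06955 was tested only because *cc* was high, so no p is given for it. The groups did not overlap for either gene.

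AT2G05905 lies in a TE-rich window of chromosome 2 and was listed at 0 in both Col-0 libraries and at 4.75 and 5.56 TPM in *cc*. The *cc* values stand on 779 and 1003 aligned bases, a mean coverage of 3.37 and 4.34. AT1G06993 (chr1:13872214-13872516) stood at 0.540 and 0 TPM in Col-0 and at 3.62 and 4.10 TPM in *cc*, and AT2G05705 (chr2:5021920-5022199) stood at 0.301 and 0.198 TPM in Col-0 and at 1.87 and 2.31 TPM in *cc*. Both lie in windows where TEs cover over 50% of the sequence. The adjusted p of AT1G06993 was 0.015 (limma), but its call was lost without either *cc* library and without Col-0 replicate 2. It was also lost with a pseudocount of 0.1. AT2G05905 and AT2G05705 are among the 10 members that were tested only because *cc* was high, so no p is given for them, and their calls were lost without either *cc* library. Of the 17 risen members, 10 were listed at 0 in both Col-0 libraries, and for these no fold is given.

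**Figure D1:**
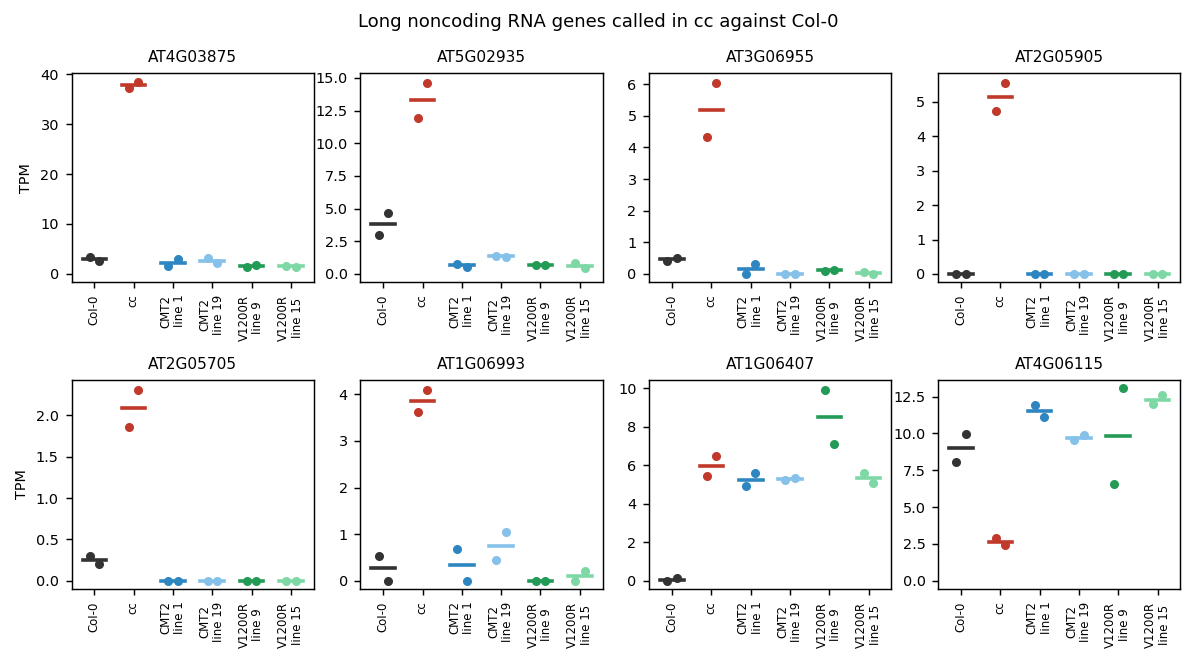
TPM (y axis, a scale of its own for each gene) of 8 lncRNA genes called between *cc* and Col-0. Points are the 2 libraries of each group and bars their mean; for the first 6 genes *cc* stands alone, AT1G06407 is low only in Col-0, and AT4G06115 is low only in *cc*, at 2.89 and 2.43 TPM.

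The 17 risen members summed to 8.14 and 8.04 TPM in Col-0 and to 82.01 and 90.8 TPM in *cc*, where they made up 12.8% and 13.0% of the TPM on all members. The remaining members summed to 575 and 580 TPM in Col-0 and to 559 and 610 TPM in *cc*, ranges that overlap. The members were chosen on these values, so these sums describe the group and do not test it.

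All 17 risen members had a TE within 2000 bases, as had 146 of the 238 tested members and 1312 of all 2444. Their median distance to the nearest TE was 630 bases, beside 1287.5 bases for tested members and 1664.5 bases for all. Windows with at least 50% TE sequence held 7 of the 17, 30 of the tested members and 204 of all members. Another feature within 2000 bases was also higher in *cc* for 8 of the 17, and for 5 of these it was a TE or TE gene. Among the 192 tested members called in no comparison, a feature higher in *cc* lay within 2000 bases of 1. These counts include features that overlap the member, which can share its reads. Another listed feature overlapped 6 of the 17 and 106 of the 192. Across other classes of feature, 0.546% of tested protein-coding genes, 0.877% of antisense lncRNA genes, 18.3% of TEs and 51.0% of TE genes were higher in *cc*. These shares are descriptions, and the difference of the lncRNA genes from the other classes was not tested.

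**Figure D2:**
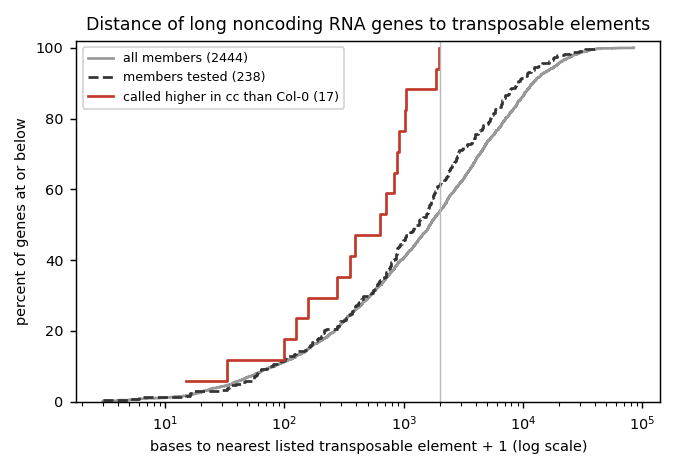
Cumulative percent of genes (y axis) by distance in bases to the nearest listed TE (x axis, log scale) for all 2444 lncRNA genes, the 238 tested and the 17 higher in *cc*. The line at 2000 bases is passed by none of the 17 and leaves 146 of the 238 tested members on its left.

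AT4G06115 stood at 8.08 and 9.96 TPM in Col-0 and at 2.89 and 2.43 TPM in *cc*, a log2 difference of -1.59 ± 0.25 (SE, adjusted p = 0.0067, limma). The call was lost without *cc* replicate 2 (as were the other 2 falls) and without Col-0 replicate 2. Its neighbours, named after their values were seen, fell as well. The protein-coding AT4G13572, 114 bases away, went from 11.2 and 9.01 TPM to 4.36 and 4.80 TPM, AT4G06120 from 14.9 and 17.1 TPM to 5.35 and 6.38 TPM, and AT4G13575 from 42.3 and 34.2 TPM to 15.8 in both *cc* libraries. Their adjusted p-values were 0.0052, 0.0008 and 0.00019 (limma). The call of AT4G13572 was lost without *cc* replicate 1, without Col-0 replicate 1 and with a pseudocount of 1. That of AT4G13575 was lost among features free of overlap. A stretch of adjacent features on chromosome 4 was thus lower in *cc*, while the TE within 2000 bases of AT4G06115, AT4TE34655, was called in no comparison.

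AT1G04877 (chr1:3960944-3961245) went from 4.12 and 6.42 TPM in Col-0 to 1.40 and 2.12 TPM in *cc* (adjusted p = 0.034, limma). AT1G08947 (chr1:25338081-25338392) went from 1.94 and 1.75 TPM to 0.429 and 0.361 TPM (adjusted p = 0.036). The call of AT1G08947 was lost whichever of the 4 libraries was left out. That of AT1G04877 was lost without either *cc* library and without Col-0 replicate 2. Neither was called between CMT2/*cc* and *cc*. AT1G08947 was called higher than *cc* in V1200R/*cc* line 9 (1.42 ± 0.31, SE, log2 scale, adjusted p = 0.021, limma), again lost whichever of the 4 libraries was left out.

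Each transgenic line was then compared with *cc*, to ask which lncRNA genes move when a CMT2 is put back. The members lower than *cc* were in part the risen ones, 13 of 16 in CMT2/*cc* line 1, 12 of 13 in line 19, 14 of 22 in V1200R/*cc* line 9 and 14 of 25 in line 15. In CMT2/*cc* line 1, 16 members were lower than in *cc* and 1 higher, beside a background of 1.67% lower and 0.296% higher. In CMT2/*cc* line 19 the numbers were 13 lower and 3 higher, beside 1.52% and 0.191%. In V1200R/*cc* line 9 they were 22 lower and 4 higher, beside 2.08% and 0.932%, and in V1200R/*cc* line 15 they were 25 lower and 5 higher, beside 2.29% and 1.56%, with 18 lower and 7 higher after quantile normalization. Line 15 is also the line whose seed markers summed to 16.5 and 25.8 TPM, and the part of this in its counts was not tested. The median log2 difference over the tested members was -0.16, -0.08, -0.16 and -0.14 in the same order. The 4 comparisons share the 2 *cc* libraries, so they do not support each other. The comparison of *cc* with Col-0 uses the same 2 libraries, so a member that is high in them by error would be called in it and in the lines alike.

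These counts rest on the *cc* libraries. Without *cc* replicate 1 the members lower than *cc* numbered 3, 4, 4 and 5 in lines 1, 19, 9 and 15, and without *cc* replicate 2 they numbered 3, 4, 6 and 7. The filter accounts for part of this loss, since of the 16, 13, 22 and 25 lower members 6, 4, 10 and 12 still reached it without *cc* replicate 1, and 6, 4, 10 and 13 without *cc* replicate 2. Leaving out a library of the line itself gave 6 lower members without CMT2/*cc* line 1 replicate 2, 9 without CMT2/*cc* line 19 replicate 1, 12 and 14 without V1200R/*cc* line 9 replicate 1 or 2, and 13 without V1200R/*cc* line 15 replicate 1. AT4G03875 and AT5G02935 were lower in all 4 lines whichever library of the comparison was left out. The same held for AT3G06955, which was tested only because *cc* was high.

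Of the 17 members that rose in *cc*, 12 were lower than *cc* in all 4 lines, 14 in both V1200R/*cc* lines and 3 in no line. The 17 were chosen for being high in the *cc* libraries that are the reference here. Of the 12, AT3G06955 and 9 others were tested only because of these libraries, so the counts are a description and no test of a return. Of the 12, 7 were listed at 0 in all 8 transgenic libraries. AT4G03875 was at 1.59 and 2.93 TPM in line 1 of CMT2/*cc*, 3.13 and 2.13 TPM in line 19, 1.34 and 1.73 TPM in V1200R/*cc* line 9 and 1.59 and 1.39 TPM in line 15. The 4 lines were all far below *cc*, with differences of -3.84, -3.63, -4.24 and -4.27 (log2, SE 0.25 each, adjusted p at most 5.9e-05, limma). Line 1 overlapped with every other line, while line 19 lay above both V1200R/*cc* lines. The direct difference between the constructs was -0.52 ± 0.18 (SE, adjusted p = 0.058, limma) and was not called. AT4TE03295 lay between 1.01 and 1.30 TPM in CMT2/*cc* and between 0.275 and 0.461 TPM in V1200R/*cc*, and was also lower than *cc* in every line.

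AT5G02935 was at 0.730 and 0.566 TPM in line 1 of CMT2/*cc*, 1.40 and 1.30 TPM in line 19, 0.651 and 0.691 TPM in V1200R/*cc* line 9 and 0.831 and 0.459 TPM in line 15. All 8 libraries were below the Col-0 libraries as well as below *cc*. AT3G06955 was listed at 0 in both libraries of line 19 of CMT2/*cc* and reached at most 0.302 TPM in any line, against 4.33 and 6.05 TPM in *cc*. AT2G05905 and AT2G05705 were listed at 0 in all 8 transgenic libraries.

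AT1G06993 was at 0.684 and 0 TPM in line 1 of CMT2/*cc*, 0.448 and 1.05 TPM in line 19, 0 in both libraries of V1200R/*cc* line 9 and 0 and 0.210 TPM in line 15. It was called lower than *cc* in every line but CMT2/*cc* line 19 (adjusted p = 0.081, limma). The call in line 1 was lost without either *cc* library, while those in both V1200R/*cc* lines held whichever library was left out. The direct difference between the constructs was -0.82 ± 0.33 (SE, adjusted p = 0.099, limma). The remaining members called in all 4 lines, named after their values were seen because they complete the count, were AT2G04655, AT2G05695, AT3G03085, AT3G06215, AT4G04945, AT4G05215 and AT5G05205. In *cc* they lay between 0.508 and 2.48 TPM, and in the transgenic lines none exceeded 0.212 TPM. AT3G03085 has a near-identical second locus. All calls of these genes in the lines were lost when either *cc* library was left out. Those of AT2G04655 and AT5G05205 were also lost among features free of overlap.

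**Figure D3:**
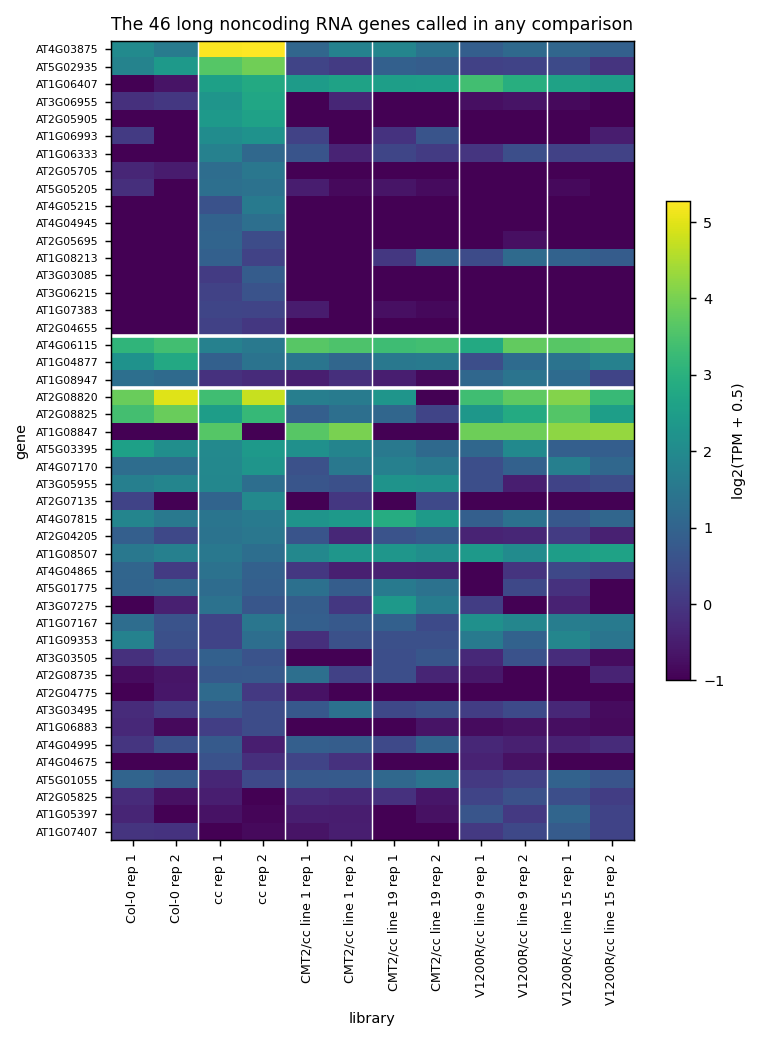
log2(TPM + 0.5) (colour) of the 46 lncRNA genes called in at least 1 comparison (rows) in the 12 libraries (columns). White lines set off the 17 genes higher in *cc*, the 3 lower in *cc* and the others; most of the top block is bright only in the 2 *cc* columns, while AT1G06407 stays bright in all 8 transgenic columns.

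AT1G06407 was the exception among the well-expressed members. It stood at 0 and 0.129 TPM in Col-0 and at 5.44 and 6.51 TPM in *cc*, where it had risen by 3.52 ± 0.18 (SE, log2 scale, adjusted p = 3.7e-06, limma). In the lines it was at 4.91 and 5.60 TPM (CMT2/*cc* line 1), 5.23 and 5.33 TPM (line 19), 9.94 and 7.10 TPM (V1200R/*cc* line 9) and 5.61 and 5.10 TPM (line 15). Every transgenic library was thus close to *cc* or above it, and far above Col-0, and the differences from *cc* were -0.17, -0.16, 0.47 and -0.14 (SE 0.18, adjusted p at least 0.16). In the 8 transgenic libraries the gene was covered by between 1745 and 3363 aligned bases, against 0 and 50 in Col-0.

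Features around AT1G06407 had the same pattern. AT1TE35870, a TE 630 bases away, was listed at 0 in both Col-0 libraries, at 13.6 and 18.3 TPM in *cc* and at between 9.28 and 20.5 TPM in the transgenic lines. The protein-coding AT1G31095, which overlaps the lncRNA gene on the opposite strand, was listed at 0 in Col-0, at 1.84 and 2.60 TPM in *cc* and at between 0.515 and 2.41 TPM in the lines. It was lower than *cc* in CMT2/*cc* line 1 (adjusted p = 0.031, limma), a call lost when any library of that comparison was left out. Whether reads were counted by strand is not given, so how they divide between AT1G06407 and AT1G31095 is uncertain, and their values are not independent. AT1G06333 and AT1G08213, named after their values were seen, were the other members called in *cc* and lower in no line, but they do not share this pattern. AT1G06333 overlaps AT1G06327, and AT1G08213 overlaps AT1G09685 and AT1G08217, so how their reads divide is uncertain too. AT1G08213, at 0 in the Col-0 tables, had 1.40 and 0.670 TPM in *cc*. Its value was 0 in either library of line 1, where the difference of -1.57 just missed the call (adjusted p = 0.05, limma). It lay between 0.512 and 1.75 TPM in the other lines, and its call in *cc* was lost whichever library was left out. AT1G06333 was at 2.91 and 1.67 TPM in *cc* and at between 0.267 and 1.05 TPM in the lines, with adjusted p between 0.055 and 0.12, so its level in the lines is not settled.

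AT4G06115, low in *cc*, was higher than *cc* in all 4 lines, the only member of which this held. It was at 11.9 and 11.1 TPM in line 1 of CMT2/*cc*, 9.54 and 9.90 TPM in line 19, 6.58 and 13.1 TPM in V1200R/*cc* line 9 and 11.98 and 12.6 TPM in line 15, all above the 2.89 and 2.43 TPM of *cc*. The differences were 1.93, 1.70, 1.64 and 2.02 on the log2 scale (SE 0.25 each, adjusted p at most 0.0064, limma). The call in CMT2/*cc* line 19 was lost without *cc* replicate 2. The neighbours AT4G13572, AT4G06120 and AT4G13575 were each higher than *cc* in CMT2/*cc* line 1 and V1200R/*cc* line 15, and AT4G13572 also in V1200R/*cc* line 9. The line 9 call was lost without line 9 replicate 1 and without *cc* replicate 1. In line 1 the calls of AT4G13572 and AT4G13575 were lost without line 1 replicate 2. None of these neighbours was called in CMT2/*cc* line 19, where their differences were 0.88, 0.71 and 0.64.

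Both V1200R/*cc* lines, and neither CMT2/*cc* line, were called below *cc* for 5 members, AT1G07383, AT2G04205, AT2G04775, AT2G07135 and AT3G05955. The first 4 are named after their values were seen. AT1G07383 reached 0.5 TPM only in *cc*, at 0.75 and 0.72 TPM, so it was tested only because *cc* was high. None of the calls of the 5 held whichever library of the comparison was left out. AT2G04775 differed from *cc* by -1.60 (log2 scale) in CMT2/*cc* line 19 as in both V1200R/*cc* lines. A call in one construct and not in the other does not show that the constructs differ. The direct comparison called 1 of the 5, AT3G05955, and gave -0.22, -0.69, -0.08 and -0.60 for the other 4 (adjusted p between 0.052 and 0.86, limma). The reverse pattern was met by AT2G08825.

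The constructs were also compared directly (4 libraries each). They differ in the substitution and in the level of CMT2 transcript. CMT2 was higher in V1200R/*cc* by 0.47 ± 0.07 (SE, log2 scale, adjusted p = 0.00093, limma). Substitution and transgene level therefore cannot be told apart here. In this comparison 9 members were higher in V1200R/*cc* and 6 lower. The background was 2.05% higher and 1.05% lower and the median log2 difference of the tested members was 0, beside -0.02 over all features. This fit treats the 2 libraries of a line as independent. Without V1200R/*cc* line 15 replicate 1 the numbers were 4 and 5. AT1G08947, AT2G08825, AT3G07275, AT4G07815 and AT5G01775 were called whichever of the 8 libraries was left out. So was AT1G07407, but it reached 0.5 TPM only in V1200R/*cc* and was tested only because that construct was high.

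AT4G07815 (chr4:13716419-13716733) was at 4.30 and 4.67 TPM in line 1 of CMT2/*cc* and 6.91 and 4.88 TPM in line 19, and at 1.38 and 2.03 TPM in V1200R/*cc* line 9 and 1.14 and 1.61 TPM in line 15. The constructs did not overlap, with Col-0 at 3.10 and 2.40 TPM and *cc* at 2.23 and 2.43 TPM between them, and the difference was -1.48 ± 0.16 (SE, log2 scale, adjusted p = 0.00018, limma). The nearest protein-coding gene, AT4G27430, stayed between 34.7 and 39.9 TPM in all libraries.

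AT3G05955 stood at 2.75 and 3.12 TPM in Col-0 and at 3.27 and 1.92 TPM in *cc*. V1200R/*cc* line 9 was at 0.933 and 0.220 TPM and line 15 at 0.702 and 0.881 TPM. The CMT2/*cc* lines differed from each other, with 1.08 and 0.953 TPM in line 1 and 4.21 and 4.04 TPM in line 19. The construct difference of -1.21 ± 0.22 (SE, log2 scale, adjusted p = 0.0038, limma) is thus mostly that of line 19, since line 1 lay just above the highest V1200R/*cc* library. In the V1200R/*cc* libraries the gene was covered by between 112 and 377 aligned bases.

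AT3G07275 (chr3:16828645-16828883), 15 bases from the TE AT3TE68145, was at 1.32 and 0.514 TPM in line 1 of CMT2/*cc*, 4.80 and 2.60 TPM in line 19, and at most 0.607 TPM in V1200R/*cc*, with a difference of -1.80 ± 0.34 (SE, log2 scale, adjusted p = 0.0043, limma). The constructs overlapped, since the lower library of line 1 was below the highest of V1200R/*cc*. The CMT2/*cc* lines also differed from each other, with line 19 above line 1. AT5G01775 (chr5:3343190-3343998) was between 1.30 and 2.52 TPM in CMT2/*cc* and at 0 and 0.782 TPM in V1200R/*cc* line 9 and 0.437 and 0 TPM in line 15. It contains the small nucleolar RNA genes AT5G01785 and AT5G10572 on its strand, which share its reads.

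AT2G08825 (chr2:15403296-15403618) and AT2G08820 (chr2:15403144-15403901) overlap on opposite strands, and their values are not independent. AT2G08825 stood at 10.1 and 14.0 TPM in Col-0, 5.12 and 8.75 TPM in *cc*, between 0.731 and 1.93 TPM in the CMT2/*cc* lines and between 4.499 and 11.5 TPM in the V1200R/*cc* lines. The CMT2/*cc* libraries were below all others, and the construct difference was 1.93 ± 0.29 (SE, log2 scale, adjusted p = 0.0012, limma). AT2G08820 stood at 13.9 and 31.1 TPM in Col-0 and 9.67 and 26.4 TPM in *cc*, a wide spread between replicates, at 4.31 TPM or less in CMT2/*cc* and between 8.88 and 16.8 TPM in V1200R/*cc*. The nearest protein-coding gene, AT2G36730, lay between 2.21 and 3.12 TPM throughout.

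AT1G08947, low in *cc*, was at 0.394 TPM or less in the CMT2/*cc* lines and at 1.64 and 2.17 TPM in V1200R/*cc* line 9 and 1.79 and 0.717 TPM in line 15, while Col-0 was at 1.94 and 1.75 TPM. The construct difference was 1.49 ± 0.22 (SE, log2 scale, adjusted p = 0.0011, limma). AT1G07407 (chr1:17499023-17499296), which overlaps the lncRNA gene AT1G07397, was at 0.217 TPM or less in CMT2/*cc* and between 0.529 and 1.24 TPM in V1200R/*cc*, with Col-0 at 0.461 and 0.447 TPM. Its difference was 1.15 ± 0.18. AT1G07407 reached 0.5 TPM only in V1200R/*cc* and was tested only because that construct was high, so no p is given.

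AT1G08847 (chr1:24912512-24912977) was on or off by library. It was listed at 0 in both Col-0 libraries, in *cc* replicate 2 and in both libraries of line 19 of CMT2/*cc*. It was at 11.9 TPM in *cc* replicate 1, 12.1 and 15.6 TPM in line 1 of CMT2/*cc*, 14.3 and 14.4 TPM in V1200R/*cc* line 9 and 18.1 and 19.1 TPM in line 15. The 2 *cc* libraries thus differed by the whole range, on 3925 and 0 aligned bases, although the gene overlaps no other listed feature. The construct comparison called it higher in V1200R/*cc* (adjusted p = 0.03, limma), and the call was lost whichever of the 8 libraries was left out.

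**Figure D4:**
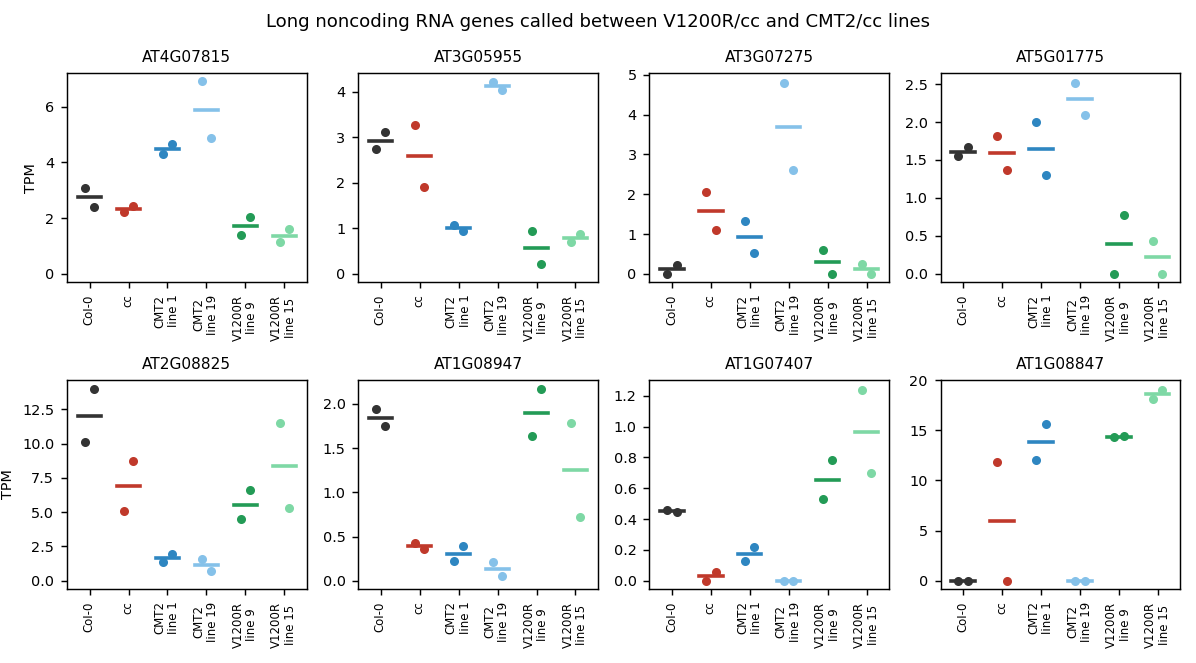
TPM (y axis, a scale of its own for each gene) of 8 lncRNA genes called between V1200R/*cc* and CMT2/*cc* lines. Points are the 2 libraries of each group and bars their mean; the V1200R/*cc* libraries are lowest for AT4G07815, the CMT2/*cc* libraries are lowest for AT2G08825, and AT1G08847 is listed at 0 in 5 libraries.

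Members called above *cc* in only some lines were few. AT1G08507 (chr1:23032347-23033035) was at 2.36 and 1.91 TPM in *cc* and at 5.15 and 5.66 TPM in V1200R/*cc* line 15, a rise of 1.17 ± 0.18 (SE, log2 scale, adjusted p = 0.0031, limma). It was at between 3.34 and 4.65 TPM in the other lines, above *cc* as well. Its differences there, 0.73 and 0.82 in CMT2/*cc* lines 1 and 19 and 0.81 in V1200R/*cc* line 9, stayed below 1. AT2G05825 (chr2:5081722-5082662) passed in both V1200R/*cc* lines from low levels, at 0.224 and 0 TPM in *cc* and between 0.607 and 0.976 TPM in V1200R/*cc*, and each call was lost whichever of the 4 libraries was left out. AT1G05397 (chr1:6271817-6272422) was at 0.116 and 0.0296 TPM in *cc* and at 1.58 and 0.693 TPM in line 15, and AT5G01055 (chr5:1619137-1619371) at 0.300 and 0.817 TPM in *cc* and 1.66 and 2.17 TPM in line 19 of CMT2/*cc*. The call of AT5G01055 was lost whichever of the 4 libraries was left out, and that of AT1G05397 in line 15 was lost in 3 of the 4 such fits. AT1G05397 reached 0.5 TPM only in V1200R/*cc*, so it was tested only because that construct was high. AT4G07815 was also called above *cc* in CMT2/*cc* line 19, AT1G07407 in both V1200R/*cc* lines and AT1G08947 in V1200R/*cc* line 9. None of the calls of these last genes held whichever library of the comparison was left out.

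Well-studied Arabidopsis lncRNAs were looked for in a list of 18 loci. None was a member, because the tables hold them under other classes of feature, 12 as other RNA and 3 as protein coding. Of the 18, 14 were tested, and only APOLO, ASCO, IPS1 and AT4 among them were called in any comparison. APOLO (AT2G34655), a transcript known to shape a chromatin loop near the auxin-related kinase gene PID, stood at 0.732 and 0.533 TPM in Col-0 and at 29.3 and 32.0 TPM in *cc*, a rise of 4.79 ± 0.20 (SE, log2 scale, adjusted p = 9e-07, limma). In the 8 transgenic libraries it was at 0.153 TPM or less, and was called lower than *cc* in every line. PID lay between 2.86 and 5.09 TPM in all libraries and was called in no comparison.

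ASCO (AT1G67105), an RNA known to compete for splicing regulators, stood at 28.4 and 27.8 TPM in Col-0 and at 67.5 and 77.3 TPM in *cc* (log2 difference 1.35 ± 0.18, SE, adjusted p = 0.0031, limma). It was at 3.08 and 3.20 TPM in line 1 of CMT2/*cc*, 10.5 and 16.8 TPM in line 19, and between 3.13 and 4.51 TPM in V1200R/*cc*. All transgenic libraries were below Col-0 as well as below *cc*. The calls for APOLO and ASCO held whichever library was left out.

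IPS1 (AT3G09922) and AT4 (AT5G03545) are related transcripts that act as decoys for a microRNA in the phosphate starvation response, where that microRNA targets PHO2. IPS1 stood at 45.9 and 74.6 TPM in Col-0, 24.8 and 41.8 TPM in *cc*, between 3.75 and 10.0 TPM in CMT2/*cc* and between 37.5 and 66.6 TPM in V1200R/*cc*, a construct difference of 2.77 ± 0.31 (SE, log2 scale, adjusted p = 0.00024, limma). AT4 stood at 170 and 222 TPM in Col-0, 89.4 and 121 TPM in *cc*, between 31.6 and 57.8 TPM in CMT2/*cc* and between 116 and 204 TPM in V1200R/*cc*, a construct difference of 1.86 ± 0.16 (adjusted p = 5e-05). For both genes the CMT2/*cc* libraries lay below all others, and *cc* and Col-0 were not called different. PHO2 lay between 56.1 and 84.8 TPM and was called in no comparison.

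**Figure D5:**
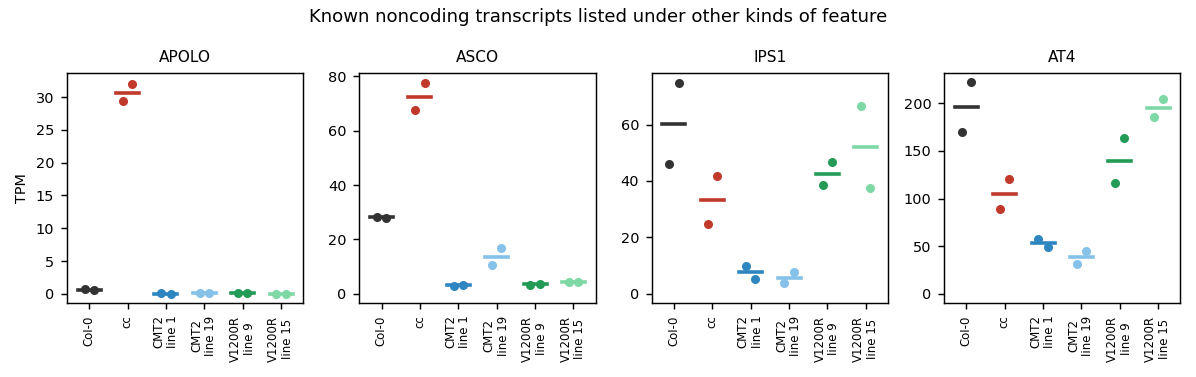
TPM (y axis, a scale of its own for each gene) of 4 known noncoding transcripts that the tables list outside the lncRNA class. Points are the 2 libraries of each group and bars their mean; APOLO and ASCO are highest in *cc*, and IPS1 and AT4 are lowest in the CMT2/*cc* lines.

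Genes that process or degrade noncoding transcripts moved little. Of 12 such genes, all of them tested, none was called in *cc* or in a CMT2/*cc* line. XRN3, a nuclear exonuclease that degrades uncapped RNA, was between 36.7 and 43.2 TPM in Col-0, *cc* and CMT2/*cc* and between 74.4 and 80.4 TPM in V1200R/*cc*. It rose by 1.00 ± 0.08 in line 9 and 1.02 ± 0.08 in line 15 (SE, log2 scale, adjusted p = 5e-05 and 4.3e-05, limma), at the minimum of the call, which was lost in 2 of 4 fits without a library in each line. The constructs differed by 0.97 ± 0.06 (adjusted p = 5e-06). Of 10 genes known as partners of the listed lncRNAs, 1 was called, CYP705A12, higher in V1200R/*cc* line 15 than in *cc* and in V1200R/*cc* than in CMT2/*cc*. The first call held in 1 of 4 fits without a library, and was lost with no filter on low values and when the 4 libraries were fitted alone. The second held whichever of the 8 libraries was left out.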

How the data were processed

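The authors selected polyadenylated RNA. Their processing notes name fastp for filtering, HISAT2 2.0.0 for alignment to TAIR10 and StringTie for abundance. The strand setting is not given in the sources used here. The deposited tables hold TPM, FPKM and coverage signal per feature, which the authors made with StringTie; TPM sum to 1000000 in each library. Coverage gave aligned bases.

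Because the files hold no counts, log2(TPM + 0.5) of the 23614 features that reached 0.5 TPM in 2 or more libraries was fitted with limma 3.58.1 (R 4.3.3), with 6 group means, 1 shared spread and Benjamini-Hochberg adjustment within each of the 6 comparisons. A call is an adjusted p under 0.05 with a difference of 1 or more in log2. Differences are on this scale, which understates changes of low genes, and no fold is given against a group listed at 0, since such a 0 can be a failed estimate. On simulated data of 23614 features the fit recovered 177 of 200 features given a log2 change of 2, with 2 false calls, for *cc* against Col-0. Recovery and false calls among the lncRNA genes alone, or among genes near 0 TPM, were not tested.

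Named members were the 5 largest rises and 5 largest falls of each comparison and the 3 highest means; others are marked as named after their values were seen. Members and lists were chosen with earlier results of these data known. Distances came from the tables. Second loci were found with BLAST 2.17.0, and tables were made with Python 3.11.15, numpy 2.4.6, pandas 2.3.3 and matplotlib 3.10.9. Alternatives were another pseudocount, filter, unit or normalization, fewer libraries, a replicate block, and features free of overlap. Every library was used.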

Additional observations from a re-analysis of the deposited data

Results flagged for a closer look

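The direct test between the constructs singled out 15 lncRNA genes whose level differed between the V1200R/*cc* and the CMT2/*cc* lines (limma, adjusted p below 0.05 and a log2 difference of at least 1). No explanation was tested. The differences below are V1200R/*cc* minus CMT2/*cc* on the log2(TPM + 0.5) scale.

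Lower in V1200R/*cc* were AT3G07275 (-1.80), AT5G01775 (-1.72), AT4G07815 (-1.48), AT3G05955 (-1.21), AT2G08735 (-1.16) and AT4G04995 (-1.13). Higher were AT1G08847 (2.66), AT2G08820 (2.47), AT2G08825 (1.93), AT1G08947 (1.49), AT1G05397 (1.18), AT1G07407 (1.15), AT1G08213 (1.10), AT1G09353 (1.09) and AT1G07167 (1.07). The adjusted p lay between 0.00018 for AT4G07815 and 0.036 for AT1G09353.

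Members of this set that the report does not describe by library are given here, and all but AT2G08735 and AT1G05397 were named after their values were seen. AT2G08735 was at 1.17 and 1.199 TPM in *cc*, 1.95 and 0.667 TPM in CMT2/*cc* line 1, 0.933 and 0.279 TPM in line 19 and at most 0.277 TPM in V1200R/*cc*, so the constructs met at that level. AT4G04995 was between 0.812 and 1.501 TPM in CMT2/*cc* and between 0.234 and 0.350 TPM in V1200R/*cc*, with no overlap. AT1G07167 was between 0.822 and 1.40 TPM in CMT2/*cc* and between 2.44 and 3.92 TPM in V1200R/*cc*. It overlaps the protein-coding AT1G43605 by its end on the opposite strand, which was between 0.625 and 1.54 TPM in CMT2/*cc* and between 1.99 and 2.78 TPM in V1200R/*cc* and was called higher too.

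AT1G09353 was between 0.400 and 0.963 TPM in CMT2/*cc* and between 1.46 and 3.19 TPM in V1200R/*cc*, with Col-0 at 2.93 and 0.935 TPM. AT1G05397 was at 0.226 TPM or less in CMT2/*cc* and between 0.530 and 1.58 TPM in V1200R/*cc*. Like AT1G07407, it was tested only because V1200R/*cc* was high. AT1G08213 was listed at 0 in line 1 of CMT2/*cc* and at 0.512 and 1.47 TPM in line 19, a range that overlaps the 0.858 to 1.75 TPM of V1200R/*cc*. The lines of the same construct thus differed for this gene, as they did for AT3G05955, AT3G07275 and AT1G08847.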

How the results depend on the processing

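Every named difference kept its sign under the alternatives that could be fitted, and of 1642 such values 192 fell out of the call. The counts of called lncRNA genes moved more. With a mean of at least 1 TPM as the filter, which left 76 members to test, 5, 4, 5, 5, 8 and 9 members were called for *cc* against Col-0, CMT2/*cc* line 1, CMT2/*cc* line 19, V1200R/*cc* line 9, V1200R/*cc* line 15 (each against *cc*) and the construct comparison. Fitting only the 4 libraries of a comparison gave 10, 8, 8, 16 and 17 for the first 5 of these. A pseudocount of 1 gave 18 for V1200R/*cc* line 15. For the construct comparison, pseudocounts of 0.1 and 1 gave 24 and 7, FPKM in place of TPM gave 8, features that overlap no other gave 9 and the adjusted p alone gave 32; the cause was not tested. Leaving out each library in turn gave between 6 and 20 called members for *cc* against Col-0, 4 and 19 for CMT2/*cc* line 1, 4 and 16 for line 19, 6 and 27 for V1200R/*cc* line 9, 8 and 30 for line 15 and 9 and 18 for the construct comparison. A group with a left-out library keeps 1 library, which is assumed to vary like the other groups.

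Replicate numbers did not pair the libraries, since deviations of same-numbered libraries correlated between -0.068 and 0.11. With the replicate number as a block, 20, 16, 14, 25, 30 and 15 members were called, beside 20, 17, 16, 26, 30 and 15 without it. At this depth 1 TPM is a mean coverage of 0.593 to 0.934, so a gene of 200 bases at 1 TPM rests on few reads.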
